A study of Mus musculus with 4 samples.

Results

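The genes that drive DNA replication and mitosis were followed in the retina of mouse embryos with and without an intact copy of Foxn3, a forkhead transcription factor gene. These 49 genes were chosen by symbol from the 18471 genes of the count table and fall by textbook role into 22 S-phase genes, 18 mitotic genes, 6 genes of the G1 cyclins and their kinases, and 3 CDK inhibitors. The labels give 2 groups of 2 libraries: wild-type embryos, and embryos labelled Foxn3KO (genotype Foxn3-/-), in which exon 3 is deleted on both alleles (line C57BL/6NJ-Foxn3em1(IMPC)Bay/Mmnc). All were taken at embryonic day 19, and each library was made from the retina of a single genotyped embryo. The deletion was studied in 1 line, and no other allele or treatment is named for either group.

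Total counts ranged from 22543531 to 29360129 per library. Foxn3 itself was higher in the libraries labelled Foxn3KO by a log2 fold change of 0.54 (edgeR adjusted p = 7.80e-08), and counts per gene cannot show the loss of one exon, so each group is called by its label. Wild-type replicate 1 had 83073 counts of Xist and 0 of the Y-linked Ddx3y, against 9 to 19 and 1780 to 2317 counts in the other libraries, so by these genes it was the only female. The 15 retinal progenitor markers were all present and their summed level was 4277 and 4457 CPM (counts scaled to library size, after TMM normalization) in the pair labelled wild-type against 4336 and 4368 CPM in the pair labelled Foxn3KO. Of these markers 5 were called higher (Six3, Six6, Sox2, Nes and Id1) and 2 lower (Hes1 and Fgf15). Lens markers did move with the groups: 10 of 11 were called higher, and their summed level was 9.32 and 79.9 CPM against 363 and 365 CPM. Of 10 tested pigment epithelium markers, 5 were called lower, with a summed level over 11 markers of 95.9 and 125 CPM against 77.3 and 79.4 CPM. Of 12 photoreceptor precursor markers, 7 were called higher, with summed levels of 1430.1 and 1427 CPM against 1533 and 1530.3 CPM. Neurogenic precursors had 1 of 12 markers called higher and 4 lower. Amacrine and horizontal cells had 2 of 13 higher and 5 lower, and ganglion cells 3 of 15 higher and 1 lower. Over all tested genes, 12.3% were called higher and 9.66% lower. The part of these tissues and cell types in the results below was not tested. In whole retina, fewer cycling cells and less RNA per cycling cell cannot be told apart.

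Before a cell copies its DNA, the origin recognition complex, Cdc6 and Cdt1 load the ring of Mcm2 to Mcm7 onto chromatin. Cdc45 and the GINS complex then turn this ring into the active helicase, and polymerases, the clamp Pcna and the enzymes of nucleotide supply carry out synthesis. In mitosis, Cdk1 with its cyclins, the Aurora and Polo kinases and the kinetochore checkpoint drive and supervise chromosome segregation. In the retina these genes are used by dividing progenitor cells, which stop dividing as they become neurons. S-phase genes are mainly controlled by E2F factors, and many mitotic genes by a DNA element called CHR together with CCAAT boxes, which is read by the MuvB complex with Mybl2 and Foxm1.

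The start regions of 7 of these genes are shown as examples of S-phase and mitotic genes called in either direction, with the elements searched for in all members. The 7 were picked by hand and do not stand for all called genes. Each runs from base -120 to base 30, where base 1 is the transcription start, 5′ to 3′, from RefSeq (GRCm38.p6). Capitals mark E2F matches (TTTCCCGC, TTTGGCGC, TTTCGCGC or TTTGCCGC), CHR matches (TTTGAA) and CCAAT boxes, each on either strand. Mcm3 (chr1:20820283-20820432, minus strand) and Mcm7 (chr5:138171854-138172003, minus strand, 1 of its 2 starts) encode helicase subunits that were higher in the libraries labelled Foxn3KO, and Prim1 (chr10:128015095-128015244, plus strand) encodes the primase subunit that was lower and has a CCAAT box but neither of the other elements here.
Mcm3: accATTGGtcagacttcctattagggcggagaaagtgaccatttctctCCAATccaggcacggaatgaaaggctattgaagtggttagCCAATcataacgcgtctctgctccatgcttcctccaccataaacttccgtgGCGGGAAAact
Mcm7: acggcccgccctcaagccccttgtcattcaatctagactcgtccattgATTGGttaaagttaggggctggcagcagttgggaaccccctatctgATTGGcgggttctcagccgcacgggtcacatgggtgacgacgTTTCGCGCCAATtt
Prim1: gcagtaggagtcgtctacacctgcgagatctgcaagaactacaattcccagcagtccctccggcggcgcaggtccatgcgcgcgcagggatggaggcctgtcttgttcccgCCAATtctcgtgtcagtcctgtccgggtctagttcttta
In Mcm7 the E2F match at bases 17 to 24 overlaps a CCAAT box at bases 24 to 28. The start of Mcm7 with the most matches is shown. Its other start has no E2F match and carries the forkhead sequence GTAAACA at bases 33 to 39. Of the mitotic genes, Ccnb2 (chr9:70421525-70421674, minus strand) and Cenpf (chr1:189688057-189688206, minus strand) were higher, and Cenpa (chr5:30666766-30666915, plus strand) and Ttk (chr9:83834569-83834718, plus strand) were lower.
Ccnb2: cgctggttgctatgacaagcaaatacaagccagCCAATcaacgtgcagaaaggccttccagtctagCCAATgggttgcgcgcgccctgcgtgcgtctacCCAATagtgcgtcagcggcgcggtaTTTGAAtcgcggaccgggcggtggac
Cenpf: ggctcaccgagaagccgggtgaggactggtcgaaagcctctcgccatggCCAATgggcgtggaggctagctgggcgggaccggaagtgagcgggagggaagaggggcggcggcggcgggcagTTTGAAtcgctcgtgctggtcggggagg
Cenpa: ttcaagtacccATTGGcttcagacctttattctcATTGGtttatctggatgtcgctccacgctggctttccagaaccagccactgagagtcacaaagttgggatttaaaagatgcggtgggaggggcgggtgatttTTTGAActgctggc
Ttk: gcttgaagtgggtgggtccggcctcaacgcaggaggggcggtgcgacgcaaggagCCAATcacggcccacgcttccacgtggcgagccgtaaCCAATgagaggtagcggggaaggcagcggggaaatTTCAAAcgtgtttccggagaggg
All 4 shown carry CCAAT boxes before the start and a CHR match just after it. The CHR match lies at bases 5 to 10 in Ccnb2, 3 to 8 in Cenpf, 17 to 22 in Cenpa and 8 to 13 in Ttk. These 4 were chosen as examples. The start regions of Bub1 and Ccnb1, also called lower, had CCAAT boxes but no CHR match.

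Start regions of 300 bases were found for 39 of the 49 genes, 41 regions in all. An E2F match was present in 8 of 19 S-phase regions (42.1%) and 1 of 16 mitotic regions (6.2%), against 2.3% of 32851 regions genome-wide. A CHR match showed the opposite split, in 12 of 16 mitotic regions (75.0%) and 2 of 19 S-phase regions (10.5%), against 17.9% of all regions. CCAAT boxes were frequent in both, at 93.8% and 78.9% against 37.4%. The forkhead sequence GTAAACA lay in 2 of 19 S-phase regions and 0 of 16 mitotic regions, against 3.6% of all regions. The CHR match was shared by mitotic genes of either direction: it was found in all 3 that were called higher (Ccnb2, Cenpf and Plk1), in 2 of 4 called lower (Cenpa and Ttk) and in 7 of 9 that were not called. Among S-phase genes, an E2F match was found in 2 of 3 called higher (Mcm3 and Mcm7, not Mcm2). It was found in 0 of 2 called lower and in 6 of 13 not called. These are letter matches and say nothing of binding.

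Across the 49 genes, changes between the groups were small and went both ways. An adjusted p under 0.05 was reached by 20 genes (40.8%, against 21.9% of all 17300 tested genes), 9 of them higher and 11 lower in the pair labelled Foxn3KO. The shares by direction were 18.4% higher against 12.3% of all genes and 22.4% lower against 9.66% of all genes. None of the 49 genes reached a 1.5-fold change, and the called changes ranged from 9.12% for Ccnb1 to 43.1% for Ccnd2. The median log2 fold change was -0.06, against 0.00 over all tested genes (-0.00470), and the median of its absolute size was 0.12 against 0.15. In the fits without 1 library the median ran from -0.0432 to -0.0123, a range that leaves out -0.06. All 49 genes passed the filter on low counts, with at least 153 counts in every library. In 40 of the 49 genes the groups did not overlap, 17 higher (34.7%) and 23 lower (46.9%). Of all tested genes, 60.4% did not overlap, 29.9% higher and 30.5% lower. The share called was thus above that of all genes while the typical change was no larger. All tested genes include genes with far fewer counts and were not matched to the 49 in level. Neither comparison is therefore like for like.

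**Figure D1:**
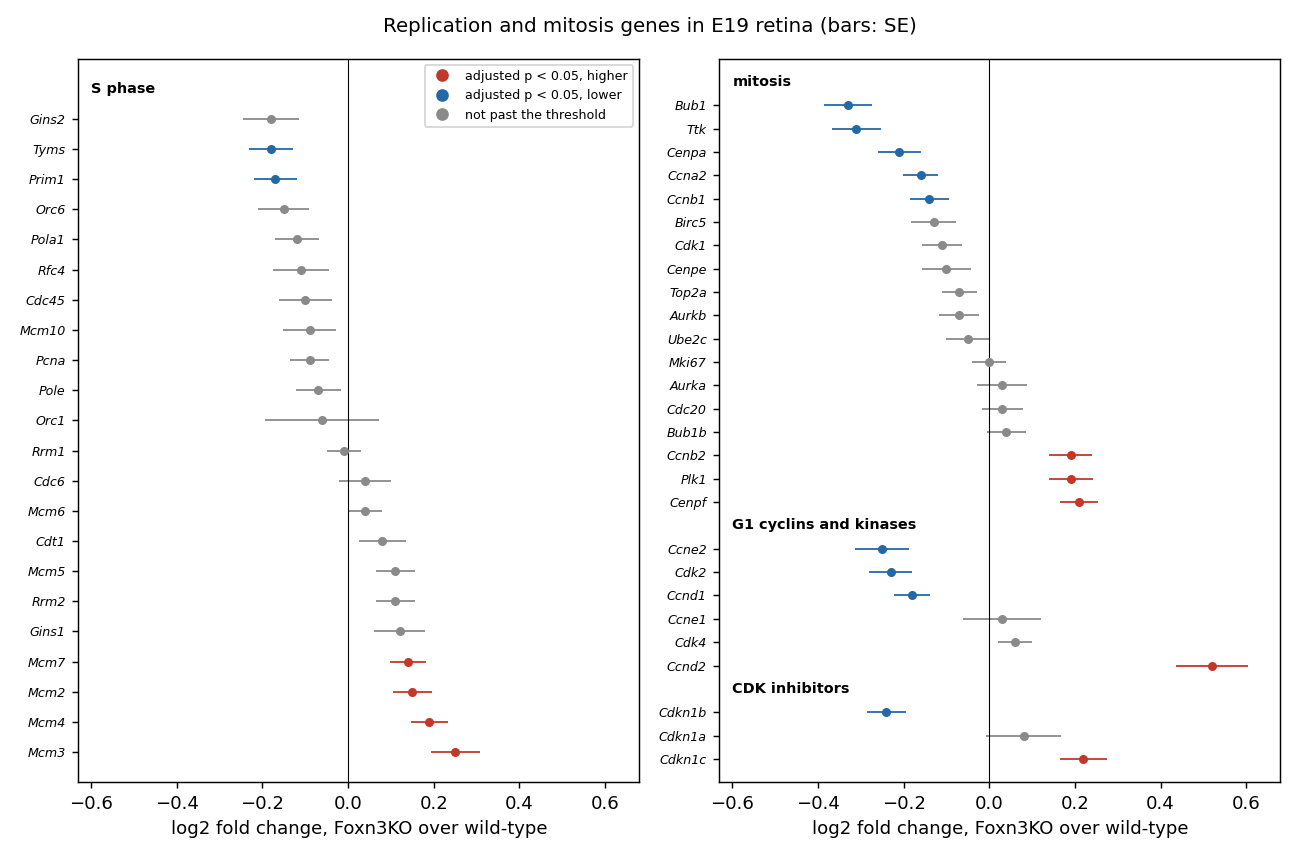
Log2 fold change of each of the 49 genes, libraries labelled Foxn3KO over wild-type (x axis), by role and sorted by value; bars are standard errors from the edgeR fit. Red and blue points passed an adjusted p of 0.05 and grey points did not: the called genes lie between -0.33 (Bub1) and 0.52 (Ccnd2).

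The 20 calls depended on which library was left out. In the edgeR test without Foxn3KO replicate 1, 3 genes were called higher and 5 lower, and without Foxn3KO replicate 2 the counts were 5 and 4. These are 16.3% and 18.4% of the 49 genes, near the 13.6% and 13.5% of all tested genes called in the same fits. Without wild-type replicate 2 they were 11 and 21, and without wild-type replicate 1, the library with Xist counts, 9 and 12, or 65.3% and 42.9% against 29.5% and 25.3% of all tested genes. Such a fit assumes that the lone library varies like the other pair, and the wild-type pair differed more than the Foxn3KO pair (mean chi-square per gene 10.06 and 1.887). All 20 called genes kept their direction in each of these 4 fits. Still called without Foxn3KO replicate 1 were 8 of the 20, and without Foxn3KO replicate 2 it was 9. Mcm3, Bub1, Ttk, Ccnd2 and Cdkn1b passed in all 4 fits, so each of the other 15 calls was lost without at least 1 of the libraries labelled Foxn3KO.

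Of the 6 subunits of the helicase ring, 4 were called higher (66.7%, against 12.3% of all tested genes). All 6 of its genes, Mcm2 to Mcm7, had a higher level in both libraries labelled Foxn3KO than in both wild-type libraries, as did 29.9% of all tested genes. The complex was singled out after its values were seen. Mcm3 had 149 and 173 CPM in the pair labelled wild-type and 194 and 190.5 CPM in the pair labelled Foxn3KO, a log2 fold change of 0.25 (SE 0.0571, edgeR adjusted p = 0.00385). The wild-type libraries differed among themselves here: leaving out replicate 1 gave 0.15, and leaving out replicate 2 gave 0.37. Mcm4 was tighter, with 139.7 and 143 CPM against 163 and 160.2 CPM (log2 fold change 0.19, SE 0.0443, edgeR adjusted p = 0.00408). Mcm2 had 185 and 189.8 CPM against 214 and 202 CPM (0.15, edgeR adjusted p = 0.0233), and Mcm7 had 240.3 and 243 CPM against 265 and 268 CPM (0.14, edgeR adjusted p = 0.0186). In Mcm4 and Mcm7 the gap between the groups was several times the gap between replicates, and in Mcm2 it was about as wide as the gap between the libraries labelled Foxn3KO. Mcm5 (0.11, edgeR adjusted p = 0.114) and Mcm6 (0.04, edgeR adjusted p = 0.494) did not pass, and the 95% interval of Mcm6 ran from -0.04 to 0.13.

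No factor that loads or activates this ring was called by edgeR, against 21.9% of all tested genes. With 4 genes in each set, 0 called is not set apart from that share, and these sets were divided after the values were seen. By edgeR 0 of the 4 loading factors were called (1 at an unadjusted p under 0.05, 0 in DESeq2 and limma): Orc1, Orc6, Cdc6 and Cdt1 had log2 fold changes of -0.06, -0.15, 0.04 and 0.08. Orc6 had 79.0 and 70.2 CPM against 66.3 and 68.5 CPM, so its groups differed by less than the wild-type libraries among themselves. Of the 4 genes that activate the helicase 0 were called by edgeR (1 at an unadjusted p under 0.05, 0 in DESeq2 and limma). Cdc45, Gins2 and Mcm10 had values of -0.10, -0.18 and -0.09, and Gins1 had 0.12. Gins2 came closest to the threshold (edgeR adjusted p = 0.0553), with 39.5 and 38.1 CPM against 35.3 and 33.0 CPM.

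All 5 genes of DNA synthesis had negative log2 fold changes, from -0.17 to -0.07, a sign shared by 8801 of all 17300 tested genes. Of the 5, 1 was called lower, against 9.66% of all tested genes, and the set was divided after the values were seen. Of 46 other replication genes, 7 were called higher, Pold3 and Lig1 among them, and 5 lower. Prim1, the catalytic subunit of primase, which starts each new strand, had 104 and 98.5 CPM against 89.6 and 90.7 CPM, a log2 fold change of -0.17 (SE 0.0497, edgeR adjusted p = 0.0224, or 0.0529 with the trend in transcript GC content removed). Pola1, the catalytic subunit of the polymerase bound to primase, had 105 and 98.3 CPM against 94.6 and 92.4 CPM and did not pass (-0.12, edgeR adjusted p = 0.102). Pola1 is X-linked, and its value was -0.07 without wild-type replicate 1, the female library. The part of sex in it was not tested. Pcna, the sliding clamp, had 384 CPM in wild-type replicate 1, but 351 CPM in wild-type replicate 2 was close to the 344 and 345 CPM of the libraries labelled Foxn3KO. Pole, the leading-strand polymerase, and Rfc4, a clamp loader subunit, had values of -0.07 and -0.11 and were not called.

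Of the genes of nucleotide supply, a set divided after the values were seen, 1 of 3 was called, against 21.9% of all tested genes. Tyms, thymidylate synthase, had 81.5 and 85.3 CPM against 74.5 and 72.6 CPM, a log2 fold change of -0.18 (SE 0.0517, edgeR adjusted p = 0.0179). The subunits of ribonucleotide reductase did not follow it: Rrm1 had 298 CPM in both wild-type libraries and 296 and 295 CPM in the pair labelled Foxn3KO, and Rrm2 had 0.11 (edgeR adjusted p = 0.113). Neither Tyms nor Prim1 passed in DESeq2, where 14.1% of all tested genes were called and their adjusted p-values were 0.0746 and 0.0813, so 0 S-phase genes were called lower there, against 2 in limma and 5 at an unadjusted p under 0.05 in edgeR. In total, 4 of 22 S-phase genes (18.2%) rose and 2 (9.09%) fell, near the 12.3% and 9.66% of all tested genes. Without Foxn3KO replicate 1 these counts were 1 and 0, without Foxn3KO replicate 2 they were 2 and 0, and without wild-type replicate 2 they were 6 and 8.

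**Figure D2:**
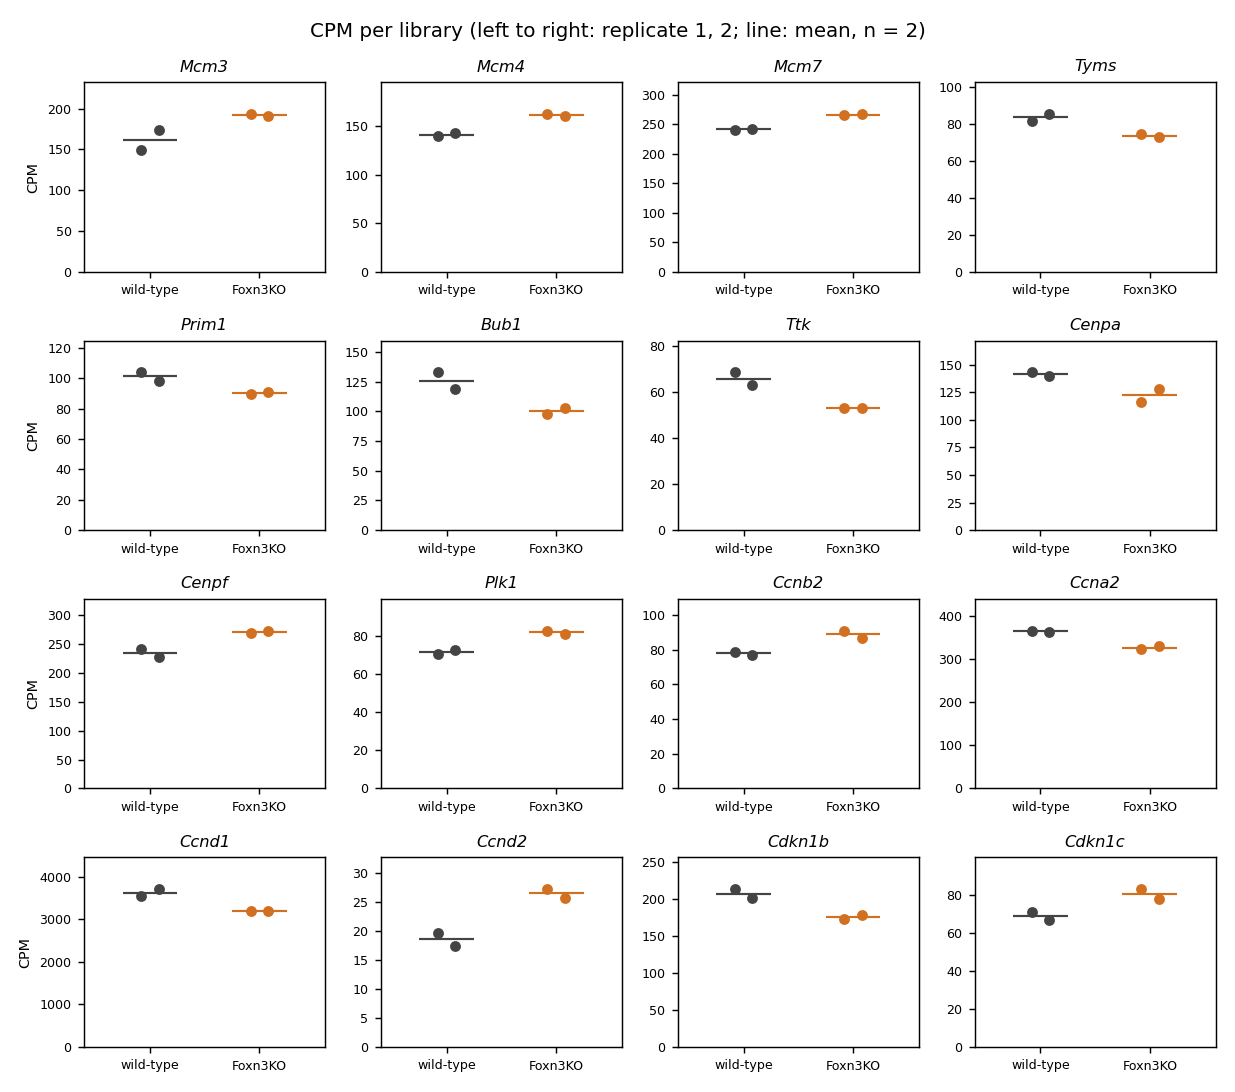
CPM (y axis, from 0) in each library for 16 of the genes; points are libraries, replicate 1 left of replicate 2, and lines are group means (n = 2 each). In all 16 panels the groups do not overlap, and in Mcm3 and Bub1 the wild-type libraries lie far apart. Only called genes are plotted, so this lack of overlap does not stand for all 49 genes. The groups overlapped in 9 of the 49 genes, and 60.4% of all tested genes did not overlap.

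The mitotic genes moved both ways, also within a complex or process. Bub1 and Ttk encode kinases of the spindle checkpoint, which holds cells until every chromosome is attached. Bub1 had 133 and 118 CPM in the pair labelled wild-type and 98.01 and 103 CPM in the pair labelled Foxn3KO, a log2 fold change of -0.33 (SE 0.0556, edgeR adjusted p = 0.000324). This was the largest fall of the 49 genes, and its value was -0.24 when replicate 1 of the wild-type pair was left out and -0.41 when replicate 2 was. Ttk had 68.6 and 62.98 CPM against 53.02 and 53.001 CPM, a log2 fold change of -0.31 (SE 0.0581, edgeR adjusted p = 0.000747). The third checkpoint component on the list, Bub1b, did not pass, with 143 and 140.3 CPM against 144 and 147 CPM (0.04, 95% interval -0.06 to 0.13). Neither did Cdc20, the activator of the anaphase-promoting complex, nor Ube2c, its ubiquitin-conjugating enzyme (0.03 and -0.05).

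Of 4 genes of the centromere and kinetochore, 1 fell and 1 rose, against 9.66% and 12.3% of all tested genes. This set, too, was divided after the values were seen. Cenpa, the histone H3 variant that marks the centromere, had 143 and 139.7 CPM against 116 and 128 CPM, a log2 fold change of -0.21 (SE 0.0507, edgeR adjusted p = 0.00543). Cenpf, a large kinetochore protein that accumulates in G2, had 241 and 227 CPM against 269 and 273 CPM, a log2 fold change of 0.21 (SE 0.0437, edgeR adjusted p = 0.00191). Both groups were separated in each gene. Cenpe, a kinetochore motor, had 129 CPM in wild-type replicate 1 and 113 CPM in replicate 2, which overlapped the 112 and 115 CPM of the libraries labelled Foxn3KO. Birc5, a subunit of the complex that carries Aurkb, was lower in both libraries labelled Foxn3KO without passing (-0.13, edgeR adjusted p = 0.0772).

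The cyclins that activate Cdk1 were also split. Ccna2, used from S phase to early mitosis, fell from 366 and 362 CPM to 324 and 329.9 CPM (log2 fold change -0.16, SE 0.0403, edgeR adjusted p = 0.00940). Ccnb1 fell from 159.6 and 153 CPM to 140.04 and 144 CPM (-0.14, edgeR adjusted p = 0.0389), a call that did not hold in DESeq2 (adjusted p = 0.105) or with the trend in GC content removed (adjusted p = 0.106). Ccnb2 rose from 78.6 and 77.0 CPM to 91.0 and 86.7 CPM (0.19, edgeR adjusted p = 0.0116). Their partner Cdk1 had 141.5 and 141.2 CPM against 128 and 134 CPM and did not pass (-0.11, edgeR adjusted p = 0.0912). Plk1, the Polo kinase of mitotic entry, rose from 70.4 and 72.8 CPM to 82.9 and 81.0 CPM (0.19, SE 0.0513, edgeR adjusted p = 0.0108). Aurka (0.03) and Aurkb (-0.07) did not pass. Ccnb1, Ccnb2, Tyms and Pcna have processed pseudogenes in mouse, and how reads shared with them were counted is not given in the sources used here, so their values are less certain.

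Neither of the widely used proliferation markers passed the test. Mki67, the antigen of cycling cells, had 605 and 593 CPM in the pair labelled wild-type and 601 and 595 CPM in the pair labelled Foxn3KO. Its log2 fold change was 0.00 with a 95% interval of -0.09 to 0.08 (edgeR adjusted p = 0.969). Top2a, the topoisomerase of condensing chromosomes, had 972 and 919 CPM against 902.4 and 902.3 CPM, with an interval of -0.15 to 0.02 (edgeR adjusted p = 0.268). In all, 3 of 18 mitotic genes (16.7%) rose and 5 (27.8%) fell, against 12.3% and 9.66% of all tested genes. Without Foxn3KO replicate 1 the counts were 1 and 2, without Foxn3KO replicate 2 they were 1 and 3, and without wild-type replicate 2 they were 3 and 9.

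S-phase and mitotic members were then set side by side. Their median log2 fold changes were -0.04 and -0.07, a difference of 0.0307. The difference was 0.0622 without wild-type replicate 2 and 0.0555 without Foxn3KO replicate 2. Its lowest value without 1 library was 0.0389, so 0.0307 lies outside that range. The S-phase median itself was -0.0107 without wild-type replicate 1. It ran from -0.0271 to -0.0107 over the fits without 1 library, a range that leaves out -0.04. The mean log2 CPM of the 22 S-phase genes was 6.574 and 6.552 in the pair labelled wild-type and 6.565 and 6.552 in the pair labelled Foxn3KO, so the groups overlapped. The mean log2 CPM of the 18 mitotic genes was 7.205 and 7.162 against 7.117 and 7.142, lower in both libraries labelled Foxn3KO. The S-phase mean minus the mitotic mean was -0.62 ± 0.0146 (SD, n = 2) in the pair labelled wild-type and -0.571 ± 0.0264 (SD, n = 2) in the pair labelled Foxn3KO. The shift between the groups was 0.049 on the log2 scale, against a replicate spread of 0.0213 (pooled SD) in the same measure. It is given as a description, with no test over the genes.

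The genes of the same processes outside the 49 were counted in the same fit. Of 76 other mitosis genes, 29 fell (38.2%) and 4 rose (5.26%), against 9.66% and 12.3% of all tested genes, and the median log2 fold change was -0.12. Without Foxn3KO replicate 1 the falls numbered 17, and without replicate 2 there were 15 falls and 1 rise. Of 46 other replication genes, 5 fell (10.9%) and 7 rose (15.2%), with a median of -0.02. Without Foxn3KO replicate 1 these were 3 and 4, without Foxn3KO replicate 2 they were 2 and 3, and without wild-type replicate 2 they were 12 and 10. A negative value was found in 67 of the 76 mitosis genes and in 27 of the 46 replication genes, against 8801 of all 17300 tested genes.

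Among the other mitosis genes the smallest p-values in each direction were as follows. Hjurp, the chaperone that loads Cenpa onto centromeres, fell from 438 ± 19.9 to 329.8 ± 4.25 CPM (SD, n = 2 each; log2 fold change -0.41, SE 0.0430, edgeR adjusted p = 1.29e-06). Ncapg, a condensin subunit, and Hmmr, a spindle-associated protein, had log2 fold changes of -0.35 and -0.38 (edgeR adjusted p = 3.22e-05 and 0.000112). In the other direction, Nek2, a centrosomal kinase, rose from 83.9 ± 1.47 to 108 ± 1.64 CPM (0.36, SE 0.0485, edgeR adjusted p = 2.68e-05). Ect2, which is needed for cytokinesis, rose by 0.19, and Mad1l1, a checkpoint protein, by 0.29 (edgeR adjusted p = 0.00695 and 0.00699). Hjurp and its cargo Cenpa were both lower.

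Among the other replication genes, the 3 with the smallest p-values in each direction are given. Pold3, a subunit of the lagging-strand polymerase, rose by 0.27, Lig1, the ligase that joins Okazaki fragments, by 0.28, and Uhrf1, which guides maintenance DNA methylation, by 0.21, all as log2 fold changes (edgeR adjusted p = 0.000316, 0.000547 and 0.00190). Cdc7, the kinase that triggers origin firing, fell by 0.26, its activating subunit Dbf4 by 0.20, and the origin subunit Orc4 by 0.23 (edgeR adjusted p = 0.00429, 0.0104 and 0.00809). The call of Orc4 did not hold once the trend with transcript GC content was removed (adjusted p = 0.144).

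**Figure D3:**
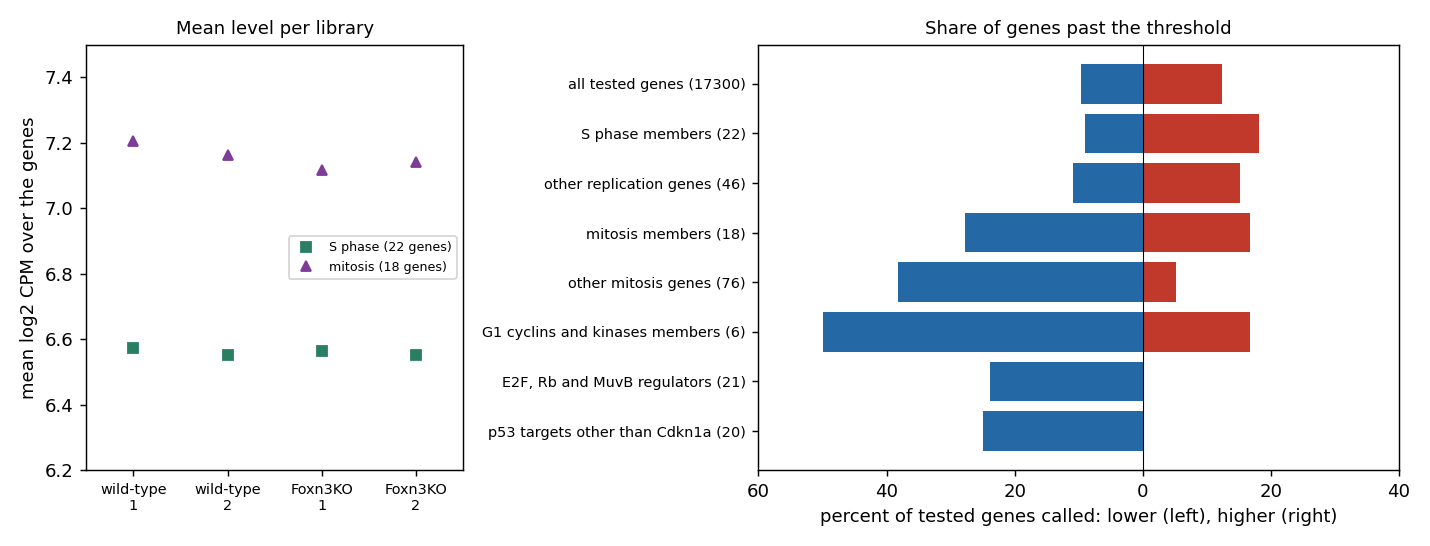
Left, mean log2 CPM (y axis, not from 0) of the S-phase and mitotic genes in each library. Right, percent of tested genes in each list called lower (left of 0) and higher (right of 0), with the number tested in brackets: other mitosis genes reached 38.2% lower, against 9.66% of all tested genes.

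The G1 cyclins and their kinases held the largest change of the 49 genes. Ccnd2, a D-type cyclin that carries growth signals into the cycle, had 19.6 and 17.3 CPM in the pair labelled wild-type and 27.2 and 25.7 CPM in the pair labelled Foxn3KO. Its log2 fold change was 0.52 (SE 0.0844, edgeR adjusted p = 0.000209), from 0.43 to 0.61 when 1 library was left out. Ccnd1, the D-type cyclin of retinal progenitors, fell from 3545 and 3709 CPM to 3203 and 3184 CPM (-0.18, SE 0.0415, edgeR adjusted p = 0.00376). Per length, Ccnd1 was by far the higher of the pair, at 767 and 676 FPKM (group means, fragments scaled for transcript length and sequencing depth, from the deposited table) against 1.96 and 2.80 FPKM for Ccnd2. These were the top and the bottom of the order of the 49 genes in wild-type FPKM, followed at the top by Pcna (153 FPKM), Cdk4 (132 FPKM) and Top2a (105 FPKM).

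Of the kinases, Cdk2, the partner of cyclins E and A, had 101 and 99.3 CPM against 88.1 and 83.3 CPM (log2 fold change -0.23, SE 0.0503, edgeR adjusted p = 0.00321). Cdk4, the partner of D-type cyclins, had 428 and 430.3 CPM against 451 and 443 CPM and did not pass (0.06, 95% interval -0.02 to 0.14). Ccne2 fell from 48.0 and 45.4 CPM to 40.5 and 37.9 CPM (-0.25, edgeR adjusted p = 0.00819), and Ccne1 had overlapping groups (0.03). With the trend in transcript GC content removed, Ccne2 had -0.12 and was not called (edgeR adjusted p = 0.154). In this set 1 of 6 genes rose and 3 of 6 fell, against 12.3% and 9.66% of all tested genes, and no fall was called without Foxn3KO replicate 2. Of 13 tested further G1 regulators, 2 fell (15.4%) and 1 rose (7.69%), near the 9.66% and 12.3% of all tested genes (median -0.14). Cdk6 fell by 0.30 and Skp2, which marks Cdkn1b for degradation, by 0.17, while Fzr1, an activator of the anaphase-promoting complex in G1, rose by 0.19 (edgeR adjusted p = 0.000165, 0.0198 and 0.0113). Skp2 did not pass in DESeq2 (adjusted p = 0.0729). In the fits without either Foxn3KO library this list had no rise called. Its lower calls numbered 1 without Foxn3KO replicate 2 and 5 without wild-type replicate 2.

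The CDK inhibitors, which mark cells leaving the cycle, went in different directions. Cdkn1b, encoding p27, fell from 213.9 and 201 CPM to 174 and 178 CPM (log2 fold change -0.24, SE 0.0454, edgeR adjusted p = 0.000979). Cdkn1c, encoding p57, rose from 71.1 and 66.7 CPM to 83.2 and 77.8 CPM (0.22, SE 0.0556, edgeR adjusted p = 0.00714), a call lost without Foxn3KO replicate 1 only. Cdkn1a, encoding p21 and a target of p53, had 19.6 and 22.5 CPM against 23.0 and 21.5 CPM with overlapping groups (0.08, edgeR adjusted p = 0.564). Of 20 genes of p53 and its other targets, 5 fell and 0 rose by edgeR, against 9.66% and 12.3% of all tested genes. At an unadjusted p under 0.05, 3 were higher, and DESeq2 and limma called 0 higher. Trp53inp1, Ccng1 and Sesn1 had log2 fold changes of -0.29, -0.22 and -0.25 (edgeR adjusted p = 0.00126, 0.00960 and 0.0116), and Trp53 itself had 0.01. Ccng1 was not called with the GC trend removed (adjusted p = 0.0766). The 5 falls became 2 without Foxn3KO replicate 1, 3 without Foxn3KO replicate 2 and 3 in DESeq2.

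Of the regulators that switch these genes, 5 of 21 fell (23.8%) and 0 rose by edgeR, against 9.66% and 12.3% of all tested genes, with a median of -0.06. At an unadjusted p under 0.05, 1 was higher, and DESeq2 and limma called 0 higher. Foxm1, a forkhead activator of mitotic genes, fell from 194 ± 1.31 to 164 ± 1.68 CPM (SD, n = 2 each; log2 fold change -0.24, SE 0.0430, edgeR adjusted p = 0.000535). Mybl1 had a log2 fold change of -0.50 (edgeR adjusted p = 3.31e-07), while its relative Mybl2 had -0.05 with overlapping groups. Of the E2F genes, E2f1 and E2f6 fell by 0.13 and 0.15 (edgeR adjusted p = 0.0365 and 0.0498), and neither passed in DESeq2 (adjusted p = 0.0905 and 0.190). E2f2, E2f3, E2f4, E2f5, E2f7 and E2f8 did not pass, with values of -0.13, 0.09, -0.05, 0.18, -0.12 and 0.00. The 5 falls became 2 without Foxn3KO replicate 1, without Foxn3KO replicate 2 and in DESeq2, and 3 under RLE size factors or with no filter.

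Transcript GC content moved with these values. Across the 49 genes the Spearman correlation of the log2 fold change with GC content was 0.47, and the Pearson correlation was 0.46 (n = 49 genes from the same 4 libraries, not independent replicates). Over 16763 genes with a value the Spearman correlation was 0.13. The median GC content was 52.5% in the 9 genes called higher and 44.3% in the 11 called lower. With the GC trend of each library removed, 17 of the 20 calls held and 10 genes were called higher and 9 lower, against 13.6% and 9.41% of all genes in that fit. Prim1, Ccnb1 and Ccne2 were lost (edgeR adjusted p = 0.0529, 0.106 and 0.154), and Rrm2 and Gins2 were gained (0.0424 and 0.0264). Under that setting 26 of the 76 other mitosis genes were called lower and 4 higher, and 3 other replication genes lower and 7 higher.

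**Figure D4:**
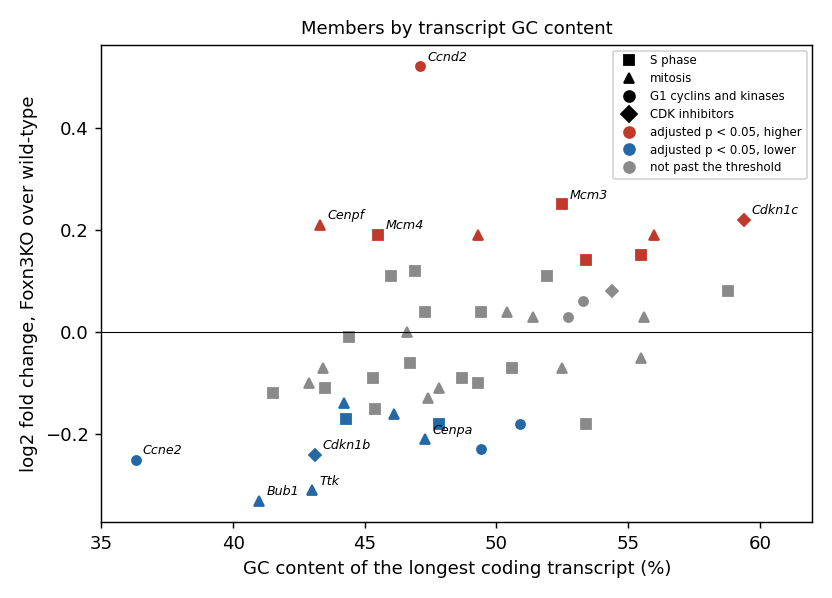
Log2 fold change, libraries labelled Foxn3KO over wild-type (y axis), of the 49 genes by GC content in percent of the longest coding transcript (x axis). Marker shape gives the role and colour the call: Bub1, Ttk, Cdkn1b and Ccne2 lie low at left, while Cenpf and Mcm4 are high at a GC content below the median of 47.8%.

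In the authors' deposited table, 17 of the 49 genes had an adjusted p below 0.05: 9 were higher and 8 were lower. All 17 were also called by edgeR, and Tyms, Prim1 and Ccnb1 were called by edgeR only.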

How the data were processed

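RNA was sequenced from 4 retinas, 1 library each. Whole-number counts per gene were deposited by the authors without normalization. Per the submitters' processing notes, DESeq2 and the build mm39 were used; the aligner, counter, annotation, strand setting and use of molecular identifiers are not given in the sources used here, so reads of antisense partners and of pseudogenes of Pcna, Tyms, Ccnb1 and Ccnb2 may not be separated. FPKM values, deposited by the authors, served for levels between genes. The log2 fold changes and the p-values, raw and adjusted, in the authors' deposited table served only for the comparison named as theirs. The mean signal deposited by the authors was not used.

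From 18472 rows, 1 repeated identifier was dropped. filterByExpr left 17300 genes, scaled with TMM and compared by the quasi-likelihood F test of edgeR 4.0.16 under R 4.3.3 (current fit, two-sided, Benjamini-Hochberg over all tested genes, threshold 0.05). "Called", "rose" and "fell" mean past that threshold. Standard errors were derived from the F statistic. The scripts were tested on simulated data of 17300 genes. Of 100 genes given an absolute log2 fold change of 0.2, 14% were called, and of 100 given 0.5, 93%. Among the genes given no change, 24 were called, a larger share of the simulated calls than the threshold of 0.05. Far fewer genes were changed there than the 3795 called in the data. These shares therefore do not give the power of the test here. A gene that missed the threshold is not shown to be equal. Lists are described by counts and medians, with no list test. The 49 genes and all lists were chosen with earlier results of these data known, and the division by sub-role (loading, helicase and so on) after their values were seen. The named genes are the 49, Foxn3, E2f1 to E2f8, Foxm1, Mybl2, Trp53, and in each wider list the 3 called genes per direction with the smallest p. Alternatives were RLE and total count scaling, no filter, at least 10 counts in every library, DESeq2 1.42.0, limma 3.58.1 (voom), the earlier edgeR fit, a replicate block, and leaving out each library. A GC offset (lowess span 0.3, GENCODE M21 transcripts, 16763 genes matched) and the test without each library were added after seeing the data. Nothing in the labels gives a litter, so a litter shared within a group cannot be told apart from genotype. The p-values rest on the spread within each pair of embryos, and the wild-type pair was of mixed sex by Xist and Ddx3y.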

Additional observations from a re-analysis of the deposited data

How the results depend on the processing

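All 20 called genes kept their direction in each alternative and in each fit without 1 library. Of the 20, 17 were called in DESeq2 and 17 with the GC offset, and 20 in every other alternative with all 4 libraries. Without 1 library, 20, 20, 8 and 9 were called (wild-type replicates 1 and 2, then Foxn3KO replicates 1 and 2). Genes gained were Gins2 and Rrm2 with the GC offset, Gins2, Cdk1 and Birc5 under total count scaling, Cdk1 in the earlier edgeR fit and Gins2 with the replicate block. Where no cause is named, the cause was not tested.

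In DESeq2, 2433 genes were called over all tested genes, and the lower calls were 0 in S phase, 3 in other replication genes, 2 in E2F, Rb and MuvB regulators, 1 in other G1 regulators and 3 in p53 targets. With the GC offset other replication genes had 3 lower calls. The E2F list had 1 higher call with at least 10 counts in every library, the replicate block or the GC offset, and 3 lower calls under RLE or with no filter. Other G1 regulators had 4 lower calls under total count scaling and with the replicate block. Total count scaling gave median log2 fold changes of -0.0844 for the 49 genes, -0.0574 for S phase, -0.0391 for other replication genes, -0.0828 for the E2F list and -0.163 for other G1 regulators. The GC offset gave -0.0394 for the 49 genes, -0.00985 for S phase and -0.111 for other G1 regulators.

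Leaving out 1 library at a time gave 2336 to 5097 calls over all genes, 3 to 11 higher and 4 to 21 lower calls among the 49 genes, 1 to 6 and 0 to 8 in S phase, 1 to 3 and 2 to 9 in mitosis, 0 to 3 lower in G1 and 0 to 1 higher in CDK inhibitors. The ranges were 3 to 10 higher and 2 to 12 lower in other replication genes, 1 to 4 and 15 to 42 in other mitosis genes, 0 to 1 and 2 to 7 in the E2F list, 0 to 2 and 1 to 5 in other G1 regulators, and 0 to 1 and 2 to 4 in p53 targets. Median log2 fold changes ranged from -0.0432 to -0.0123 for the 49 genes, -0.0271 to -0.0107 in S phase, -0.0838 to -0.0496 in mitosis, -0.0972 to -0.0532 in G1 and -0.00802 to 0.183 in CDK inhibitors. They were -0.0255 to -0.00434 in other replication genes, -0.148 to -0.0927 in other mitosis genes, -0.101 to -0.0265 in the E2F list, -0.186 to -0.064 in other G1 regulators and -0.0775 to -0.0318 in p53 targets. The S-phase minus mitosis difference of medians ranged from 0.0389 to 0.0622.

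The replicate numbers are only labels here: over 17300 genes the replicate differences of both groups correlated at -0.00825. A fit with the replicate block called 4222 genes, against 3795 without it, and 9 higher and 12 lower of the 49 genes.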
